A study of Arabidopsis thaliana with 7 samples.

Results

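Most peaks of anti-CPD immunoprecipitated DNA on the chromosome arms of Arabidopsis thaliana had the narrowest width of their own list, and these minimum-width arm peaks are described here. Members were chosen by peak width and position. A peak was kept when its width equalled the smallest in the same list and its midpoint lay on chromosomes 1 to 5 outside the pericentromeres. The left-out stretches were 11420001 to 18270000 on chromosome 1, 910001 to 7320000 on chromosome 2, 10390001 to 16730000 on chromosome 3, 1070001 to 6630000 on chromosome 4 and 8890001 to 15650000 on chromosome 5. The first 12000 bp of chromosome 2 were also left out. Positions are those of TAIR10, counted from 1. The rule kept 1635 of the 2936 peaks of the 6 lists, 981 from UV libraries and 654 from no UV libraries. They were 87.5% of the 1868 arm peaks, and the other 233 arm peaks were wider.

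Cyclobutane pyrimidine dimers, or CPDs, are UV lesions in which neighbouring pyrimidines on a DNA strand become covalently joined. Plants remove them by photolyases, which use light to split the dimer, and by nucleotide excision repair, which cuts out the damaged stretch. An antibody against CPDs pulls down DNA fragments that carry the lesion, and a peak is a stretch where reads from the pulled-down DNA outnumber those of the input. In MACS2 the shortest peak reported is by default the estimated fragment length. Whether that default was used is not given in the sources used here.

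All plants were seedlings of wild-type Col-0, 3 weeks old, grown under a 16/8 light and dark photoperiod. The UV group, 4 libraries, received UV-C at 3000 J per square metre, and the 2 no UV libraries were labelled as not given UV. All 6 used the same antibody, and per the file names each list was called against the same pooled input, so the lists share their control. The 1 input library has no peak list here and entered no comparison. The labels do not say whether replicates were separate plants or cultures, whether plants were pooled, or how long after UV they were taken, so p-values rest on a between-library spread that may be purely technical. Group comparisons used an exact two-sided permutation test over the 15 assignments of 6 libraries into 4 and 2. Its smallest possible p is 0.0667, so no UV effect could pass 0.05. The unadjusted p-values are given with values adjusted by Benjamini-Hochberg over 6 measures, or over 5 for the chromosomes.

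Width within a library was constant by the rule, and it differed between libraries. UV replicates 1 to 4 had widths of 147, 136, 145 and 124 bp. No UV replicates 1 and 2 had 129 and 122 bp. The next width up was 1 bp larger in every list and was held by between 1 and 6 arm peaks per library. By median the narrow peaks lay well below the wider ones in the authors' score. The MACS2 quantity of that score is not stated, and it is used here only within a list. UV replicates 1 to 4 had median score percentiles of 38.6, 47.6, 54.5 and 39.7, and no UV replicates 1 and 2 of 53.7 and 53.8. Wider arm peaks had median percentiles between 82.7 and 93.9. The ranges overlapped widely. The highest-scoring narrow peak of a list reached between the 75.4th and the 90.6th percentile. The lowest-scoring wider arm peak lay at the 34.9th percentile in UV replicate 2 and between the 5.12th and the 8.64th in the other lists.

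Scores of the narrow peaks were heavily tied. The commonest score was held by 57 of 279 members in UV replicate 1, 33 of 124 in replicate 2, 150 of 270 in replicate 3 and 77 of 308 in replicate 4. It was held by 212 of 286 members in no UV replicate 1 and 209 of 368 in replicate 2. As shares these were 20.4%, 26.6%, 55.6% and 25% with UV and 74.1% and 56.8% without. The groups did not overlap, but UV replicate 3 lay close to no UV replicate 2, and no test was made. Ties over all peaks of a list are not given here, so whether this is particular to narrow peaks is not known.

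No group difference in the number of minimum-width arm peaks was detectable. UV replicates 1 to 4 held 279, 124, 270 and 308, and no UV replicates 1 and 2 held 286 and 368. UV replicate 2 was the lowest of all 6, and UV replicate 4 lay between the 2 no UV libraries. The UV mean was 245 ± 82.4 peaks (SD, n = 4), and the no UV mean 327 ± 58.0 (SD, n = 2), with an exact permutation p of 0.4 and an adjusted p of 0.933. The difference, UV minus no UV, was -81.75 peaks, -41.3 without UV replicate 2 and -40.75 without no UV replicate 2. Read depth is unknown, and its part in the length of a list was not tested. Merged, the members of all 6 lists covered 216401 bp, or 0.248% of the 87.2 Mb of arm sequence. Arm length was counted up to the last annotated gene of a chromosome.

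The narrow peaks were spread over the 5 chromosomes close to arm length. Chromosome 1 held 443 of them, 27.1% of the total on 27.0% of the arm sequence. Chromosome 2 held 236, 14.4% on 15.2%. Chromosome 3 held 323, 19.8% on 19.6%, chromosome 4 held 230, 14.1% on 14.9%, and chromosome 5 held 403, 24.6% on 23.2%. Over all libraries the density was between 17.7 per Mb on chromosome 4 and 19.9 per Mb on chromosome 5. The lowest densities of single arms were on the short upper arms of chromosomes 4 and 2, with 11 peaks on 1.07 Mb and 12 on 0.898 Mb. Both rest on few peaks.

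Chromosome 4 had the largest gap between group means, which was larger than either group's SD, but the groups overlapped and the test did not separate them. UV libraries had 2.46 ± 0.957 peaks per Mb of arm (SD, n = 4) and no UV libraries 3.92 ± 1.19 (SD, n = 2; exact permutation p = 0.267, adjusted p = 0.5). On chromosome 1 the UV libraries had 2.81 ± 1.11 and the no UV libraries 3.77 ± 0.720 (exact permutation p = 0.333, adjusted p = 0.5). On chromosome 2 it was 2.67 ± 0.981 and 3.54 ± 0.320 (exact permutation p = 0.333, adjusted p = 0.5). Chromosome 3 had 2.95 ± 1.06 and 3.53 ± 0.372 (exact permutation p = 0.733 before and after adjustment), and chromosome 5 had 3.02 ± 1.04 and 3.93 ± 0.735 (exact permutation p = 0.4, adjusted p = 0.5). The UV mean was lower on all 5 chromosomes, as was the mean number of members per library. Without UV replicate 2 the difference, UV minus no UV, moved from -0.584 to -0.0876 peaks per Mb on chromosome 3, from -0.965 to -0.467 on chromosome 1, from -0.866 to -0.527 on chromosome 2 and from -0.915 to -0.421 on chromosome 5. Without no UV replicate 2 it moved from -1.46 to -0.614 on chromosome 4, and without no UV replicate 1 to -2.30. As a share of its own library, chromosome 2 held 19.0% and 17.7% of members in UV replicates 1 and 2 and 11.5% and 11.7% in UV replicates 3 and 4. The no UV libraries lay between those pairs, at 15.4% and 13.6%.

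**Figure D1:**
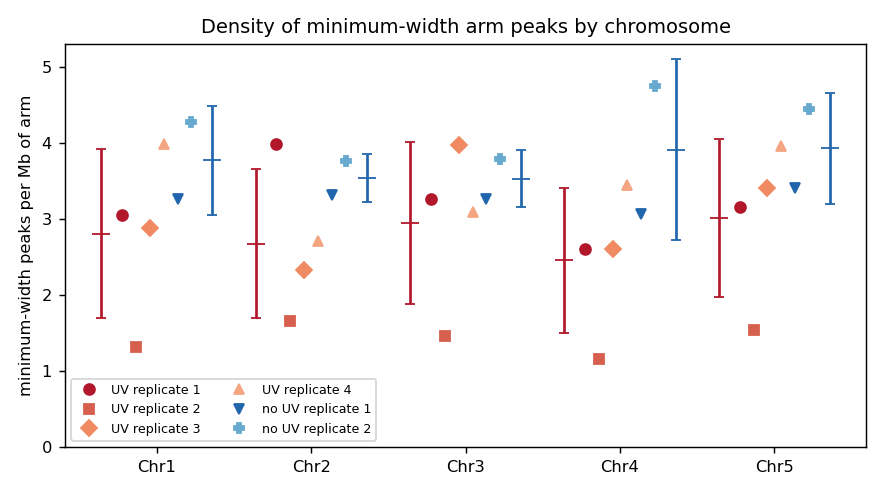
Minimum-width peaks per Mb of arm (y axis) on each chromosome (x axis), with 1 point per library. Horizontal ticks with bars are group means ± SD (UV, red, n = 4, left of the points, and no UV, blue, n = 2, right of them). UV replicate 2 is the lowest on every chromosome, and the other UV libraries overlap the no UV libraries on each.

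Density showed no steady rise or fall along the arms. In windows of 2 Mb counted outward from the edge of the left-out pericentromere, UV libraries had a mean of 2.81 ± 0.986 peaks per Mb (SD, n = 4) in the first window, 2.22 ± 0.693 in the second, 2.86 ± 0.827 in the third, 2.99 ± 0.957 in the fourth, 3.20 ± 1.41 in the fifth and 2.92 ± 1.14 in the sixth. The no UV means were 3.81 ± 0.433 (SD, n = 2), 3.53 ± 0.663, 3.625 ± 0.442, 3.94 ± 0.384, 4.11 ± 1.21 and 3.52 ± 1.40 in the same order. Both group means rose from the second window to the fifth, but not in every library, and no test was made. Protein-coding gene bodies covered 59.5%, 62.8%, 65.7%, 68.1%, 71.0% and 69.3% of these windows in order. Beyond 12 Mb there were 0.534 Mb of arm and 9 peaks, too few for a density.

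**Figure D2:**
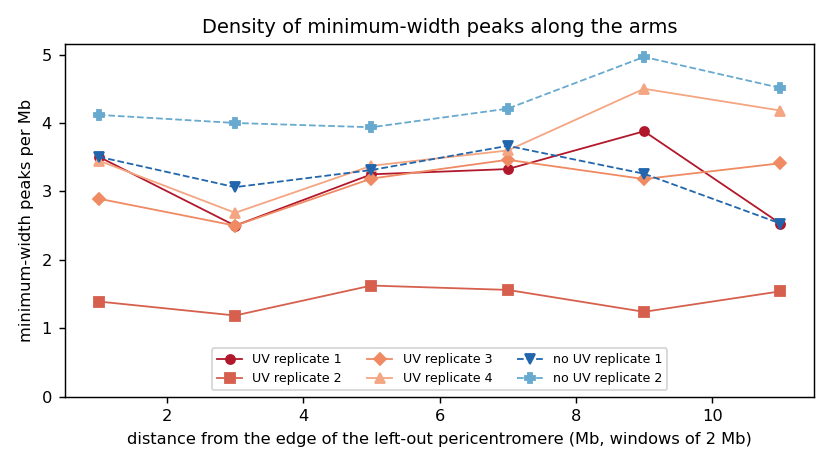
Minimum-width peaks per Mb (y axis) in 6 windows of 2 Mb by distance from the pericentromere edge (x axis), all arms together, with 1 line per library. Solid lines are UV and dashed lines no UV libraries. UV replicate 2 stays between 1.19 and 1.63 per Mb, and the other 5 libraries lie between 2.5 and 4.97.

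Most narrow arm peaks lay in protein-coding genes, with and without UV, at a share slightly above that of arm sequence. Of the 1635, 1134 had their midpoint in a protein-coding gene body (69.4%), where gene bodies cover 65.5% of arm bases. Pseudogenes held 24 (1.47%, against 2.03% of arm bases), non-coding RNA genes held 18 (1.10%, against 1.34%), and 459 lay outside every annotated gene (28.1%, against 31.1%). The protein-coding share was 68.1%, 62.9%, 70.7% and 70.8% in UV replicates 1 to 4, against 69.9% and 69.8% in no UV replicates 1 and 2. It was above 65.5% in 5 of the 6 libraries, but the exact 95% interval of each library held that value. The interval with the lowest start was 53.8 to 71.4% in UV replicate 2. That with the highest start was 65.4 to 75.8% in UV replicate 4, which only just held the value. Intervals here are Clopper-Pearson and cover counting error only.

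UV and no UV libraries were not told apart by gene context, and the protein-coding difference, UV minus no UV, was -0.0101 percentage points without UV replicate 2 in place of -1.75. In UV libraries 68.1% ± 3.70 (SD, n = 4) of members lay in protein-coding genes, and in no UV libraries 69.9% ± 0.0658 (SD, n = 2; exact permutation p = 0.733, adjusted p = 0.933). Outside genes lay 29.0% ± 3.32 of UV members and 27.9% ± 0.451 of no UV members (exact permutation p = 0.933 before and after adjustment). UV replicate 2 had the highest share outside genes, 33.9%, and without it the difference, UV minus no UV, was -0.612 percentage points in place of 1.02. Pseudogenes held 1.79%, 1.61%, 1.48% and 1.95% in UV replicates 1 to 4, against 1.40% and 0.815% in no UV replicates 1 and 2. The pseudogene groups did not overlap, but each value rests on between 2 and 6 peaks, and no test was made. All lay below the 2.03% of arm bases in pseudogenes, and the share for arm peaks of any width is not given here.

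**Figure D3:**
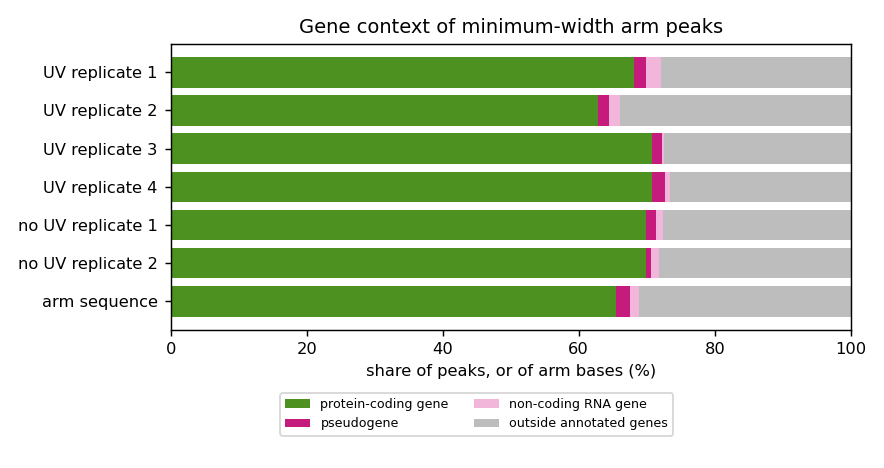
Share of minimum-width arm peaks by the gene class at their midpoint (x axis, %) in each of the 6 libraries, with the share of arm bases in each class in the lowest bar. Protein-coding genes take between 62.9% and 70.8% of each library and 65.5% of arm bases, and UV replicate 2 has the largest share outside genes, 33.9%.

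Peaks outside genes were mostly near one. Of the 459, 347 lay within 1000 bp of a gene body (75.6%), and 74.9% of the arm bases outside genes do. The median distance to the nearest gene was 424 bp over all libraries, with the shortest library median 310.5 bp (UV replicate 1) and the longest 537.5 bp (UV replicate 2). Members outside genes and within 1000 bp of one made up 21.7% ± 1.18 of UV libraries (SD, n = 4) and 21.1% ± 1.8 of no UV libraries (SD, n = 2, exact permutation p = 0.733, adjusted p = 0.933). The annotation used gives no strand or exons, so promoters, UTRs, exons and introns were not analysed here.

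The 1134 genic peaks fell in 1087 protein-coding genes, 4.55% of the 23866 on the arms. Those genes had a median length of 2970 bp, against 2118 bp for all arm genes. Weighted by its bases, the median length of arm genes was 2923 bp. Within a gene, 50.4% of peaks had their midpoint in the middle 50% of its length. By library this share was between 45% in UV replicate 3 and 62.8% in UV replicate 2.

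Among the 18 in non-coding RNA genes, 12 were in lncRNA genes and 1, in no UV replicate 1 at 287528 to 287656 on chromosome 5, was in MIR164b, a microRNA gene. The ncRNA gene AT1G64563 held members of UV replicates 1 and 4, at 23976046 to 23976192 and 23977510 to 23977633 on chromosome 1, which did not overlap.

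Spacing within a library was wide and irregular. The median distance from a narrow peak to the next on the same arm, midpoint to midpoint, was 202, 496, 206 and 191 kb in UV replicates 1 to 4. No UV replicates 1 and 2 had medians of 202 and 169 kb. UV replicate 2, the shortest list, had the longest distance, and the other 3 UV libraries lay close to the no UV libraries. Arm length per member was 313, 703, 323 and 283 kb in UV replicates 1 to 4, and 305 and 237 kb in no UV replicates 1 and 2. UV libraries averaged 274 ± 148 kb (SD, n = 4) and no UV libraries 185 ± 23.2 kb (SD, n = 2; exact permutation p = 0.467, adjusted p = 0.933). Without UV replicate 2 the difference was 14.4 kb in place of 88.5 kb.

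The median distance was between 0.650 and 0.779 of the mean distance of the same library. For points scattered independently at a constant rate this ratio is 0.693, which is given only as a scale. Distances of at most 10 kb made up 2.60%, 0.870%, 3.46% and 3.36% in UV replicates 1 to 4, against 3.26% and 3.62% in no UV replicates 1 and 2. The longest distance in a library was between 1294 kb in no UV replicate 2 and 2831 kb in UV replicate 2.

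**Figure D4:**
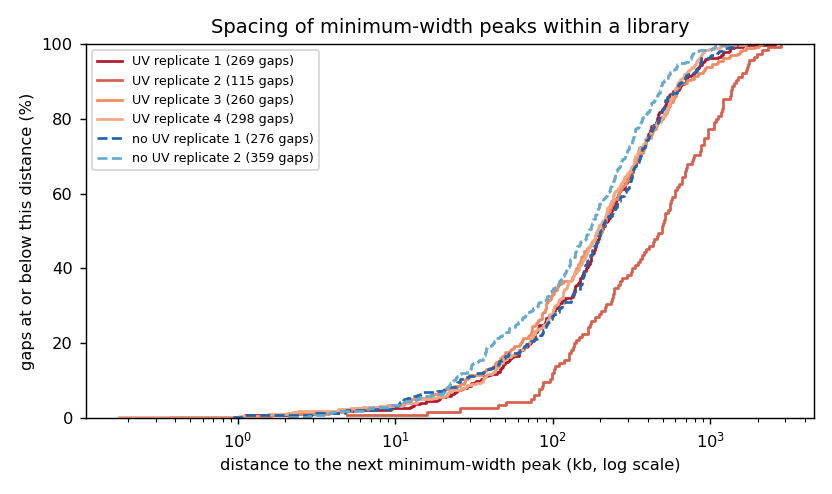
Cumulative share of distances (y axis, %) between neighbouring minimum-width peaks of the same library and arm (x axis, kb, log scale). Solid lines are UV and dashed lines no UV libraries. The line of UV replicate 2 lies to the right, with a median of 496 kb, and the other 5 medians are between 169 and 206 kb.

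A distance of at most 1 kb occurred once in each of 4 libraries and not in UV replicate 2 or no UV replicate 2. The closest pair was 175 bp apart, in AT1G73655 in UV replicate 4, at 27690328 to 27690451 and 27690503 to 27690626 on chromosome 1. The next was 378 bp apart in UV replicate 1, in RNS3, a ribonuclease gene, on chromosome 1 from 9292936 to 9293460. In UV replicate 3 a pair 890 bp apart at 4397454 to 4398488 on chromosome 5 lay in neighbouring genes, PDAT, for a phospholipid:diacylglycerol acyltransferase, and SVR3. In no UV replicate 1 a pair 931 bp apart lay in DDB2, whose protein recognises UV lesions, at 23731734 to 23731862 and 23732665 to 23732793 on chromosome 5. The fifth pair was in UV replicate 4, 1013 bp apart at 18271150 to 18272286 on chromosome 4, with its first peak in RL1 and its second outside any gene.

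Narrow arm peaks almost never recurred. Merged where they overlapped by at least 1 bp, the 1635 gave 1625 regions, of which 1616 had a member of 1 library. The remaining 9 regions, 0.554%, had members of at least 2 libraries, where 1.05% of the 1801 arm regions made from peaks of any width, members included, did. Members of 2 UV libraries and of no no UV library made up 2 regions, 0.123%, against 0.222% for peaks of any width. Both shares for narrow peaks were below those for arm peaks as a whole. The narrow counts need a peak of the smallest width in each library, a stricter rule that can by itself lower the shares. Of the 191 arm regions holding at least 1 wider peak, 14 (7.33%) had peaks of at least 2 libraries. Among the 9 narrow regions, 1 had members of both no UV libraries only, and 6 had members of both groups. No region held members of more than 3 libraries. The 9 regions became 5 without UV replicate 4 and 4 without no UV replicate 2, the longest lists. The 2 regions of UV libraries alone became 1 without any single UV library and 3 without no UV replicate 2.

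Pairs of libraries shared between 0 and 4 members. Of the 6 pairs of UV libraries, 3 shared 1 member each and 3 shared none. The no UV pair shared 1, which was 0.350% of no UV replicate 1 and 0.272% of no UV replicate 2. Of the 8 pairs across groups 4 shared none, and the highest was 4 between UV replicate 4 and no UV replicate 2, 1.30% and 1.09% of those lists.

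Counting peaks of any width in the other libraries, 30 members were overlapped (1.83%), 17 from UV and 13 from no UV libraries. By library the share was 0.717%, 2.42%, 2.22% and 1.95% in UV replicates 1 to 4, against 1.40% and 2.45% in no UV replicates 1 and 2. UV libraries averaged 1.83% ± 0.765 (SD, n = 4) and no UV libraries 1.92% ± 0.740 (SD, n = 2; exact permutation p = 0.867, adjusted p = 0.933). The sign of this small difference turned under several alternatives, listed in the closing part. A member of another library lay within 1000 bp without overlapping for between 4 and 10 members of each library.

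Wider arm peaks of the same libraries were overlapped by other libraries' peaks far more often, in 20.8%, 50%, 22.6% and 20.6% of UV replicates 1 to 4 and in 28.6% and 21.4% of no UV replicates 1 and 2. The share of narrow peaks was lower in 6 of 6 libraries, with a mean difference, narrow minus wider, of -25.5 percentage points (SD 11.3, n = 6). An exact paired permutation test over libraries gave p = 0.0313, the smallest it can give. That test takes the 6 libraries as independent, but an overlap can count for both libraries, and all lists share their control. Narrow and wider peaks also differed in score, which was not matched. The overlapped wider peaks, 56 of 233, came from few places. By region, only 14 of the 191 arm regions holding a wider peak (7.33%) had peaks of at least 2 libraries. The shares of wider peaks thus count the same places repeatedly. After adjustment over the 3 measures on which narrow and wider peaks were compared, p was 0.0938, which does not pass 0.05. Wider arm peaks had median widths of 171 to 218 bp, and with each trimmed to the smallest width of its list the mean difference was -25.1 percentage points. This comparison was chosen after the data were seen. In protein-coding genes the share of narrow peaks was lower in 4 of 6 libraries, with a mean difference of -4.19 percentage points (SD 7.94, exact permutation p = 0.25, adjusted p = 0.375). Outside genes the difference was 1.53 points (SD 7.62, exact permutation p = 0.656 before and after adjustment).

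**Figure D5:**
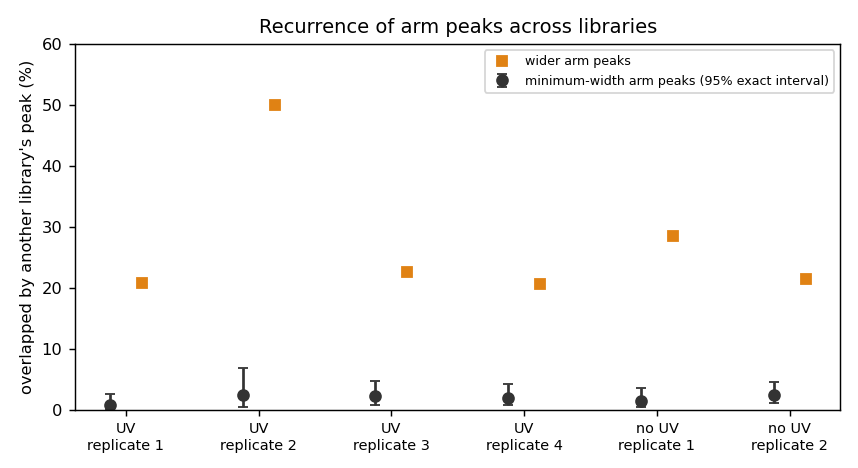
Share of arm peaks overlapped by at least 1 bp by a peak of another library (y axis, %), for each library (x axis). Circles are minimum-width peaks with exact 95% intervals, and squares are wider arm peaks. The circles lie between 0.717% and 2.45%, and the squares between 20.6% and 50%.

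The region with the most libraries lay on chromosome 5 at 22129224 to 22129482, outside genes and 1482 bp from DFL1, an auxin-conjugating enzyme gene. Its members were at 22129347 to 22129482 in UV replicate 2, 22129224 to 22129347 in UV replicate 4 and 22129227 to 22129348 in no UV replicate 2. The members of UV replicate 4 and no UV replicate 2 shared 121 bp, with midpoints 2 bp apart, the closest match in position of any overlapping pair. The member of UV replicate 2 overlapped those of UV replicate 4 and no UV replicate 2 by only 1 and 2 bp. A peak of 261 bp in no UV replicate 1, at 22129220 to 22129480, spanned nearly all of it.

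The next closest match in position was in TPPI, a trehalose-6-phosphate phosphatase gene, on chromosome 5 at 3160291 to 3160437. Members of UV replicates 1 and 2 shared 136 bp there, with midpoints 5.5 bp apart, at score percentiles 63.2 and 73.7. Peaks only just too wide to be members lay at the same place, 126 bp wide at 3160314 to 3160439 in UV replicate 4, and another 133 bp wide at 3160308 to 3160440 in no UV replicate 1. Their percentiles were 88.7 and 98.4, so the highest percentile of the 4 was in an untreated library. Each percentile is a rank within its own list and does not compare signal between libraries. UV replicate 3 and no UV replicate 2 had no peak there. With widths up to 10 bp above the smallest counted, TPPI held members of 4 libraries.

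The other 5 regions with members of both groups shared between 5 and 104 bp. In MEE27, a histone demethylase gene, members of UV replicate 3 and no UV replicate 1 overlapped by 5 bp on chromosome 2 at 14714723 to 14714991, and wider peaks of UV replicates 2 and 4 lay there too. In AT1G77230 the members of UV replicate 4 and no UV replicate 2 shared 35 bp on chromosome 1 at 29017555 to 29017765. The same 2 libraries shared 35 bp at 8463489 to 8463699 on chromosome 3, outside genes by midpoint and near the lncRNA gene AT3G04505, and 104 bp at 23771182 to 23771323 on chromosome 1 in RBOH F, for an NADPH oxidase that makes reactive oxygen. NUDX15, a Nudix hydrolase gene on chromosome 1, held members of UV replicate 3 and no UV replicate 2 sharing 92 bp at 10111225 to 10111399. Both NUDX15 members had low scores for their lists, at percentiles 5.12 and 6.64.

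Regions with members of 1 group were fewer. AT4G30090 on chromosome 4 held members of UV replicates 3 and 4, sharing 18 bp at 14709775 to 14710025, and it was the only one of the 9 regions with UV peaks and no peak of any width without UV. RALFL34, for a small signalling peptide, held members of no UV replicates 1 and 2 sharing 60 bp at 26768304 to 26768494 on chromosome 5, and none of the 4 UV-treated libraries had a peak there.

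Many overlapped members lay under a few very wide peaks of UV replicate 1. That library had the only 6 arm peaks wider than 1000 bp, in DDB2, AT2G45620, DML3 and AT1G77230. They overlapped 12 of the 30 members that a peak of another library overlapped. With peaks up to 1000 bp alone counted, 23 members were overlapped and the UV mean was 0.112 percentage points above the no UV mean. AT2G45620, an RNA uridylyltransferase gene on chromosome 2, held a member of UV replicate 3 at 18793752 to 18793896 under the peak of UV replicate 1 at 18792981 to 18795763, which was 2783 bp wide. A UV replicate 4 peak of 172 bp at 18793840 to 18794011 also overlapped it. DML3, a DNA demethylase gene on chromosome 4, held a member of no UV replicate 2 at 16317867 to 16317988, inside a peak of 1306 bp in UV replicate 1. At the edge of AT3G27510 on chromosome 3, the member of UV replicate 1 at 10187989 to 10188135 overlapped a peak of 145 bp in UV replicate 2. It lay within 500 kb of the pericentromere.

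DDB2 was the gene with narrow peaks in the most libraries. It held 7 members from 4 libraries, 1 in UV replicate 2, 2 in UV replicate 3 and 2 in each no UV library. They lay between 23730743 and 23733674 on chromosome 5, and no member overlapped one of another library. All 7 overlapped the UV replicate 1 peak at 23730836 to 23734216. The member of no UV replicate 1 at 23732665 to 23732793 also overlapped peaks of UV replicates 2 and 4, and that of UV replicate 3 at 23732811 to 23732955 a peak of no UV replicate 2.

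More often, a gene recurred without its peaks overlapping. Members of at least 2 libraries fell in 35 protein-coding genes, and in 28 of them members of different libraries did not overlap. The 35 were 3.22% of the 1087 genes with a member, where 3.52% of the 1220 protein-coding genes with an arm peak of any width had peaks of at least 2 libraries. In these 35 genes, 18 had members of both groups, 11 of UV libraries only and 6 of no UV libraries only. The last 2 counts were 1.01% and 0.552% of genes with a member, against 1.15% and 0.492% for peaks of any width, so all 3 shares lay near those of arm peaks as a whole. Their median length was 3276 bp. The count of 35 became 23 without UV replicate 1, 20 without UV replicate 4 and 17 without no UV replicate 2. SYTC, for a synaptotagmin, held 1 member each of UV replicate 1 and no UV replicates 1 and 2 on chromosome 5, at 1156521 to 1156667, 1156129 to 1156257 and 1157703 to 1157824. XIE, a myosin gene on chromosome 1, held members of UV replicate 4 at 20371539 to 20371662 and no UV replicate 1 at 20372418 to 20372546. MEE27 had a further member of no UV replicate 1 at 14711879 to 14712007.

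Genes listed for repair, UV response and RNA silencing held too few narrow peaks for a comparison with other genes. Of 35 such genes, 30 lay on the arms and 3 held a member, 10% against 4.55% of all protein-coding arm genes. In the nucleotide excision repair list 1 of 14 arm genes held one, DDB2. Of the 2 photolyase genes, UVR3, which repairs 6-4 photoproducts, held 1 member in UV replicate 1, and PHR1, which repairs CPDs, held none. RDR6, an RNA-dependent RNA polymerase of silencing, held 1 in UV replicate 3 and was the only one of 10 RNA silencing genes on the arms that did. None of UVR8, HY5, COP1 and the chalcone synthase gene CHS held one. The UVR3 and RDR6 peaks had score percentiles 52.5 and 28.3 and overlapped no peak of another library. The lists were chosen with earlier results known, and no test was made of them.

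The highest-scoring narrow peak of each library was in a different place each time. In UV replicate 1 it lay in EXPA22, an expansin gene, on chromosome 5 at 15729731 to 15729877. In UV replicate 2 it lay in AT1G61200 on chromosome 1 at 22562812 to 22562947, and in UV replicate 3 in AT3G47210 on chromosome 3 at 17385506 to 17385650. The highest of UV replicate 4 was in the pseudogene AT3G26260 on chromosome 3 at 9616731 to 9616854. In no UV replicate 1 it was in the lncRNA gene AT2G08095 on chromosome 2 at 10651336 to 10651464. In no UV replicate 2 it lay outside genes on chromosome 1 at 10927394 to 10927515, 490 bp from the lncRNA gene AT1G06357. None of the 6 was among the 9 regions with members of several libraries.

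At the edges of the rule, the arm member closest to a left-out pericentromere was at 8886505 to 8886626 on chromosome 5 in no UV replicate 2, 3436 bp away. The closest narrow peak on the other side was at 6628322 to 6628445 on chromosome 4 in UV replicate 4, 1617 bp inside.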

How the data were processed

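The deposited files are 1 peak list per immunoprecipitated library in GFF format. Per the file names, the authors called peaks with MACS2 for each library against pooled input, and per the file headers the lists were converted from BED. The submitters' processing notes name CASAVA 1.8.2, Bowtie, MACS2 and the TAIR10 build. Their settings and thresholds were not given in the sources used here. The deposited score of a peak is the authors' value, its quantity is not stated, and read depth is unknown.

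Members were found by width and midpoint, merged at 1 bp of overlap, and assigned to genes of a RefSeq table of TAIR10.1, whose nuclear coordinates were assumed to be those of TAIR10. A peak in several genes counted as protein-coding first, then pseudogene, then non-coding RNA. No genome sequence was used here, so the planned GC content and TT dinucleotides of members were not analysed. Python 3.11.15, numpy 2.4.6, pandas 2.3.3, scipy 1.17.1 and matplotlib 3.10.9 were used. Merging, overlap and context code was tested on simulated data.

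Members and lists were chosen with earlier results of these data known. Named were the 15 merged regions ranked by libraries with a member, then libraries with any peak, then mean score percentile, then position, every listed gene with a member, the 5 closest pairs, the highest-scoring member of each library, and the 5 genes with members in the most libraries. AT1G64563, MIR164b and the left-out edges were named after their values were seen. Alternatives changed the width, the arm borders, the score, the overlap, the gene assignment and the libraries included.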

Additional observations from a re-analysis of the deposited data

Results flagged for a closer look

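Dixon's criterion set 1 UV library apart in 2 of the 23 measures examined, and chance does so in about 1 of 20 such groups. Both concern UV replicate 2, the shortest list, and its low number of peaks was not tested as a cause. Its median distance between neighbouring narrow peaks was 496 kb, with the other UV libraries between 191 and 206 kb. Its wider arm peaks were overlapped by another library in 50% of cases, 8 of 16, with the other UV libraries between 20.6% and 22.6%. The 2 no UV libraries are too few for this criterion.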

How the results depend on the processing

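No comparison of UV with no UV could pass 0.05 in this design, so only direction and size can change. Differences below are UV minus no UV. The lower number of narrow peaks, their lower density on each chromosome, the lower protein-coding share and the longer spacing with UV kept their direction under every alternative run, but some shrank with 1 library left out. Density and spacing largely restate the number of narrow peaks on arms of fixed length, so they are not separate results. Without UV replicate 2 the protein-coding difference was -0.0101 in place of -1.75 percentage points, the chromosome 3 density difference -0.0876 in place of -0.584 per Mb, and the spacing difference 14.4 in place of 88.5 kb. With each library left out in turn, the density difference ran from -1.47 to -0.456 per Mb on chromosome 1, -1.31 to -0.527 on chromosome 2, -0.925 to -0.0876 on chromosome 3, -2.30 to -0.614 on chromosome 4 and -1.43 to -0.396 on chromosome 5. Directions turned for shares that differed by under 2 percentage points. The share outside genes but within 1000 bp of one, 0.569 points, was -0.00684 with widths up to 10 bp above the smallest and -0.482 with arm borders moved 500 kb. It ran from -0.702 to 1.84 with 1 library left out. The share outside genes, 1.02 points, ran from -0.612 to 1.8. The share overlapped by another library, -0.0955 points, was 0.179 with the wider limit, 0.232 with 50% overlap, 0.0116 with narrow peaks alone counted, 0.112 with peaks up to 1000 bp alone, an alternative chosen after seeing the data, and -0.413 to 0.523 with 1 library left out. The gap between narrow and wider arm peaks in overlap with other libraries was -27.0 to -21.1 points with 1 library left out. Each had an exact permutation p = 0.0625, the smallest that 5 libraries allow. That p-value also takes the libraries as independent, though overlaps are shared between them. Counts with 1 library left out were 4 to 8 for regions with members of several libraries, 1 to 3 for those of UV libraries only, and 17 to 30 for genes with members of several libraries. Same-numbered UV and no UV libraries share only a number in the labels. With the replicate block, taking replicates 1 and 2 alone, the difference was -125.5 narrow peaks, -4.38 points in protein-coding genes, 2.97 points outside genes, 164 kb in spacing and -0.354 points overlapped, and no direction changed. The smallest p of that block is 0.5. GC content and TT dinucleotides could not be run without a genome sequence.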

Other observations

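Some genes held narrow peaks of 2 libraries of the same group at places that did not overlap. They were picked here after their values were seen, and no test was made. RGA1, a DELLA repressor of gibberellin signalling, FER2, a ferritin gene, and HDG1, a homeodomain gene, each held members of 2 UV libraries and of no untreated one. SAG13, a senescence-associated gene, and ABCC14, an ABC transporter gene, each held members of both no UV libraries and of no UV-treated one. There are 4 UV and 2 no UV libraries, so more genes can be of the first kind. In all, 11 genes had members of at least 2 UV libraries alone and 6 of both no UV libraries alone, overlapping or not. These were 1.01% and 0.552% of genes with a member, near the 1.15% and 0.492% for peaks of any width.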
